A study of Mus musculus with 8 samples.

Results

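Antisense RNAs are long noncoding RNAs (lncRNAs) that are transcribed from the DNA strand opposite to a protein-coding gene. The annotation of the deposited table put 2767 of its 53710 gene rows in that class, and 1699 of these were above 0 in at least 1 library. The antisense RNAs described here are the 272 rows of the class whose deposited mean over all libraries was at least 1 FPKM (a fragment count scaled to transcript length and library size), without the snoRNA host genes whose names begin with Snhg. Members were thus chosen by their measured mean level over both groups, not by a difference between the groups. Just inside the limit lay Fbxl12os at 1.006, RP24-460O22.2 at 1.005 and RP23-32P19.3 at 1.004 FPKM, and just outside it RP23-45A13.4 at 0.9884, RP23-252I12.5 at 0.9877 and Arf4os at 0.986 FPKM. Antisense transcripts can arise when a promoter fires in both directions, when 2 converging genes run past each other, or from a start site inside the intron of the gene on the other strand. Some act on the gene they overlap, as Airn and Kcnq1ot1 do at imprinted loci and Tsix does at Xist, others are hosts of small RNAs, and for most no function is known.

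Total RNA was sequenced after rRNA removal from pools of 5 to 7 pineal glands of male mice, killed when 5 months old at ZT 0.5, shortly after lights-on. The 4 pools of 5xFAD mice, labelled 1, 2, 3 and 21, came from a B6.Cg-Tg line that carries mutated human APP among its transgenes, driven by the neuronal Thy1 promoter, and accumulates the peptide amyloid beta in the brain. The 4 wild type pools, labelled Normal with the numbers 11, 21, 22 and 23, came from C57BL/6 mice of another supplier, so genotype and colony cannot be told apart. No treatment is named in the labels. Values of single libraries are listed in the order of these numbers.

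Depth, read from the steps between low FPKM values, was about 13590000 to 19330000 scaled fragments in 5xFAD libraries and 11850000 to 14770000 in wild type libraries. One fragment on an RNA of 2000 nt was therefore worth 0.0283 to 0.0405 FPKM in 5xFAD and 0.0372 to 0.0463 FPKM in wild type, and 116 members with 1 annotated transcript had a median of 12 fragments in their lowest library. All 10 pinealocyte markers were detected, with summed levels of 2552 to 4096 FPKM in 5xFAD and 1772 to 3757 FPKM in wild type libraries. Other tissue was present in unequal amounts. Osteoblast and osteocyte markers (8 of 8 detected) summed to 17.9 to 77.8 FPKM in 5xFAD and 26.8 to 170.0 FPKM in wild type, bone marrow neutrophil markers (7 of 7) to 22.97 to 247.3 and 20.02 to 441.8 FPKM, and choroid plexus markers (5 of 5) to 211.8 to 822.7 and 443.5 to 623.8 FPKM, or 48.2 to 642.0 and 259.1 to 492.0 FPKM without Otx2, which is a pinealocyte marker too. No marker of these lists was at 0 in all libraries. Brown fat markers reached 996.2 FPKM in 5xFAD-2 and no more than 76.0 FPKM elsewhere. Normal-22 stood apart, because it alone held Xist, the X inactivation RNA of female cells, at 13.3 FPKM against at most 0.040 FPKM in the other 7 libraries, although all mice were described as male. In bulk samples, fewer cells of a type and less RNA per cell cannot be told apart.

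Sequences of the members on which the results below turn are given first. RP23-479J7.2 is the antisense RNA for which the study designed primers. The study counted it among its differing lncRNAs and reported its change by PCR as well. RP23-479J7.2 is Gm16062 in GENCODE M21, a spliced RNA of 771 nt in 2 exons on the plus strand of chromosome 11 (GRCm38, 59810080 to 59818491). Its start lies 64 nt from Flcn, the tumor suppressor folliculin, and its 3' end overlaps the 3' end of Cops3, a subunit of the COP9 signalosome. The amplicon of the primers covers 187 nt at chr11:59818210-59818396 on the plus strand, with the primer sites in capitals. The RefSeq promoter window (250 bases before to 50 bases after the annotated start, chr11:59809830-59810129, plus strand) holds the cAMP response element TGACGTCA, in capitals, 1 base after the start.
RP23-479J7.2 amplicon: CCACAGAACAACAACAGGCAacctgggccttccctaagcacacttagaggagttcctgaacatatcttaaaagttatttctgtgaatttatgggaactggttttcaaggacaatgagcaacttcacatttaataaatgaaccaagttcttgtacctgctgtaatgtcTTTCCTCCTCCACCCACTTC
RP23-479J7.2 promoter window: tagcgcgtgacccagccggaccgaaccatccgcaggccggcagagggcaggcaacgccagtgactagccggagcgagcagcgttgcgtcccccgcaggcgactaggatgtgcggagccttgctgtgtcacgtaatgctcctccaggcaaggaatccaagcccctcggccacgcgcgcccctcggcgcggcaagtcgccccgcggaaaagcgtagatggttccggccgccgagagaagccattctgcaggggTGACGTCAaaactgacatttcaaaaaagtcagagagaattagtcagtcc
RP23-479J7.2 was the only member with this motif among the 142 members that matched a RefSeq window by symbol, 0.704% of them, against 1.85% of all 27025 windows (1 window per gene, both strands searched, GRCm38.p6).

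The member with the highest level, RP24-388N11.3 (AI847159, chromosome 2, minus strand), is shown because its window (chr2:129180624-129180923, minus strand) holds TAATCC, the letters bound by the CRX and OTX homeodomain factors that act in photoreceptors and pinealocytes, in capitals, 20 bases before the start.
RP24-388N11.3 promoter window: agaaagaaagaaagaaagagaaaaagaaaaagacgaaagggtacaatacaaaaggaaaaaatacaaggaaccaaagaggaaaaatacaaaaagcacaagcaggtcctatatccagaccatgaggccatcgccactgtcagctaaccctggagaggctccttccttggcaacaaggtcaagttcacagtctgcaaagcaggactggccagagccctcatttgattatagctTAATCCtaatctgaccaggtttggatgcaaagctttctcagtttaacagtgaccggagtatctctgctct
TAATCC or its reverse complement was present in 16 of 142 member windows, 11.3%, against 7.15% of all windows. CACGTG, the E-box of the clock factors, was in 8.45% of member windows against 7.24% of all, CCAAT in 39.4% against 38%, and TATAAA in 7.04% against 14.2%. Windows with a CpG ratio (observed over expected CG dinucleotides) above 0.6 made up 53.5% of the members' windows and 36.5% of all windows. The share was 55.3% in members that lie head to head with their partner (26 of 47), 62.5% in tail to tail members (20 of 32) and 35.9% in members inside a gene (14 of 39). The set of all windows was not limited to genes expressed in the gland, whereas the members were, so these shares are not like for like. The matches describe letters and no binding was measured.

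Map2k3os starts 166 nt from Map2k3, a MAP kinase kinase gene that runs the other way, and is shown as an RNA from a promoter between divergent genes. Its window (chr11:60931818-60932117, minus strand) has a CpG ratio of 0.89 and 1 reversed CCAAT box, in capitals, 132 bases before the start.
Map2k3os promoter window: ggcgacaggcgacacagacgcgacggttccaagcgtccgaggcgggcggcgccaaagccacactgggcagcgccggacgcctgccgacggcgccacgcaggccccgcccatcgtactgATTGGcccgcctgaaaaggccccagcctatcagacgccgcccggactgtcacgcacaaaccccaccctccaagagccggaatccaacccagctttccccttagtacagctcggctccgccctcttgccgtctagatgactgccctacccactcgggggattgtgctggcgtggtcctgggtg

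Small RNA genes lay on the strand of 16 members, and in an exon of 9 of them. Dnm3os (chromosome 1, 162217623 to 162225550, plus strand) holds Mir199a-2 and Mir214, miRNAs of mesenchymal and skeletal tissue. RP23-23B17.2 (F630028O10Rik, chromosome X) holds Mir223, a miRNA of myeloid cells. The mature miRNAs are given from RefSeq (GRCm38.p6) with the seed, bases 2 to 8, in capitals, and the 4 seeds differ.
mmu-miR-199a-5p (chr1:162217844-162217866, plus strand): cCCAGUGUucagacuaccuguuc
mmu-miR-199a-3p (chr1:162217883-162217904, plus strand): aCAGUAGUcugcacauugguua
mmu-miR-214-3p (chr1:162223438-162223459, plus strand): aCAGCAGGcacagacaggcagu
mmu-miR-223-3p (chrX:96242884-96242905, plus strand): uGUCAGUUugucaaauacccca
Rab26os (chromosome 17, 24528248 to 24528744, plus strand) holds the C/D box snoRNA gene Snord60 from position 210 of its 477 nt transcript, and the other annotated transcript, of 298 nt, lacks it. The C box and the D box are in capitals.
Snord60 (chr17:24528476-24528553, plus strand): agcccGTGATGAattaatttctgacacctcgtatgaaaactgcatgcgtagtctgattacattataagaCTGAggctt
The rows of Snord60, Mir199a-2, Mir214 and Mir223 themselves were listed at 0 in all 8 libraries, so their mature forms were not measured here.

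The antisense RNAs were low as a class. The median of their mean level was 2.12 FPKM, against 10.4 FPKM for protein-coding genes and 2.40 FPKM for the other lncRNAs above the same limit. Only 42 of 272 reached 5 FPKM, 15 reached 10 FPKM and 2 reached 50 FPKM, and together they held 81.6% of the FPKM of all antisense rows. They were above 0 in all 8 libraries in 263 cases, and none was at 0 throughout a group. By gene structure they were short, with a median of 1352 exon nt in 2 exons, against 4512 nt in 10 exons for expressed protein-coding genes.

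RP24-388N11.3, for which no function is known, was the most abundant with 90.5, 90.8, 62.3 and 83.4 FPKM in 5xFAD, against 54.3, 59.4, 97.0 and 74.9 FPKM in wild type. It overlaps no protein-coding gene. Rab26os had 95.5, 85.0, 73.5 and 97.0 FPKM in 5xFAD, against 45.9, 59.8, 80.1 and 75.5 FPKM in wild type libraries, which overlapped. It sits in an intron of Rab26, which encodes a small GTPase of secretory vesicles, and its mean was 70.8 times that of Rab26 (76.5 and 1.08 FPKM). The exon bases of Rab26os include Snord60, and the part of snoRNA fragments in this level was not tested. RP23-119N24.3 (1700042O10Rik) had 74.1, 53.2, 48.7 and 41.2 FPKM in 5xFAD, against 32.8, 43.0, 57.1 and 47.4 FPKM in wild type. It lies wholly inside Ddc, the aromatic L-amino acid decarboxylase that makes serotonin, the precursor of melatonin, and shares no exon base with it. Its level was 0.279 of that of Ddc, whose mean of 178.1 FPKM was among the highest of the partners.

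The next 7 members made up the highest 10. They were RP23-423N6.3 at a mean of 34.4 FPKM, Tug1 at 32.8, RP23-428N8.3 at 26.1, Gt(ROSA)26Sor at 22.4, Airn at 19.6, AC117574.2 at 16.3 and RP24-271F24.2 at 15.9 FPKM. Tug1, a widely expressed lncRNA that shares its promoter region with Morc2a, was the steadiest of them with 29.3 to 33.7 FPKM in 5xFAD and 31.5 to 36.8 FPKM in wild type. Its level was 1.93 times that of Morc2a. RP23-428N8.3, in the gene Xrra1, varied most with 18.6 to 50.4 FPKM in 5xFAD and 5.2 to 52.1 FPKM in wild type.

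Of the 270 members found in GENCODE M21, 238 overlapped a protein-coding gene on the other strand, here called the partner, and 44 of these overlapped more than 1. Where several did, the partner is the gene with the most overlap, so that the partner is not always the gene in the name. Sp3os, Brip1os, Tmem147os, Tomm6os, Ccdc142os and Atad3aos were paired in this way with Gm11084, Ints2, Gapdhs, RP23-345D6.12, RP23-177J21.2 and Vwa1. The pairs lay head to head in 83 cases, with the member inside the partner in 81, tail to tail in 62, and with the member spanning the partner in 12. Exon bases were shared by 177 pairs, with a median of 279 nt, while 61 pairs touched introns only. The 5' ends were within 1000 nt of each other in 54 pairs and within 300 nt in 18. The other 32 members had no partner, but 21 of them began or ended within 1000 nt of a protein-coding gene.

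Most antisense RNAs were far below their partner. The member was lower in 171 of 238 pairs, in 157 of them in all 8 libraries, and higher in 67, in 46 of them in all 8. The median log2 ratio of the 2 mean levels was -1.88. It was -2.48 in head to head pairs (12 of 83 above the partner), -1.84 inside (25 of 81), -1.41 tail to tail (20 of 62) and 2.89 in spanning pairs (10 of 12), whose partners had a median of only 0.176 FPKM. Because 45 partners were under 1 FPKM while every member was chosen to be above it, the 193 pairs with a partner of at least 1 FPKM are the fairer set, and there 22 members were above their partner. H3f3aos, head to head with H3f3a, which encodes the histone variant H3.3, showed how low a member could be beside its partner. Its mean was 1.35 FPKM against 186 FPKM for H3f3a, although the 2 share 160 exon nt. Kcnq1ot1, the imprinted RNA of 93092 nt that silences its neighbors, showed the reverse, with 6.93 FPKM against 0.560 FPKM for Kcnq1.

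**Figure D1:**
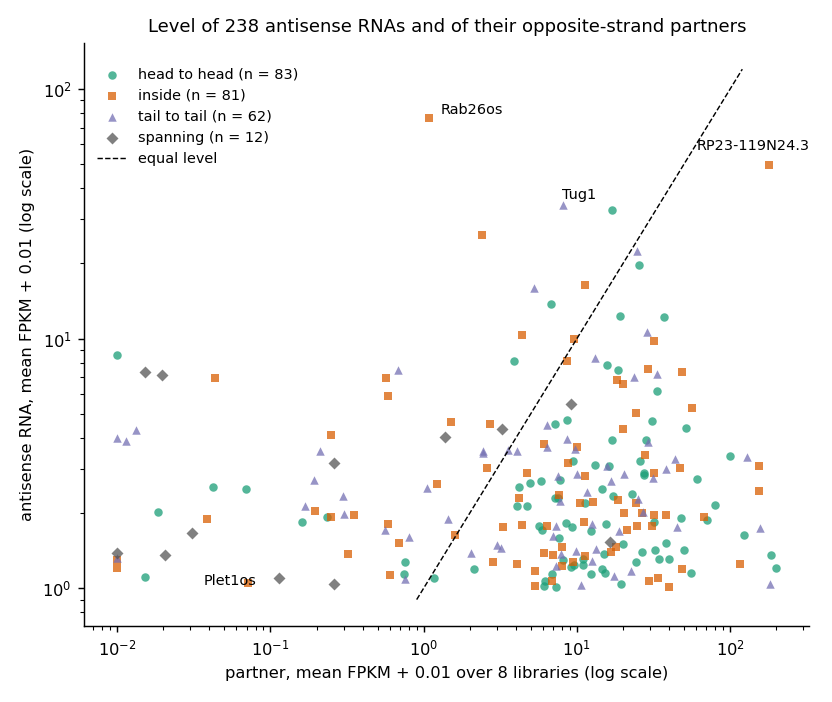
Mean FPKM of 238 antisense RNAs (y axis) and of their opposite-strand protein-coding partners (x axis), both with 0.01 added and on log scales, by geometry of the pair. The dashed line marks equal levels, and 171 of the points lie below it.

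Whether the 5xFAD mice differed from wild type in these RNAs was tested with limma on log2(FPKM + 0.1), in one fit of the 13953 protein-coding and lncRNA genes whose mean reached 1 FPKM. No antisense RNA passed a Benjamini-Hochberg adjusted p of 0.05 (0 of 272, smallest adjusted p 0.387), and 6 genes did in the whole fit, 0.043%. At an unadjusted p under 0.05 there were 22 members, 8.09%, against 8.02% of all genes. Of these, 16 were higher in 5xFAD (5.88%, against 4.77% of all genes) and 6 were lower (2.21%, against 3.25%). These shares were near the background. The thresholds the study used for lncRNAs, an unadjusted p under 0.1 and a change over 1.5-fold, were applied to this limma fit alone. By them, 20 members were higher (7.35%, against 2.9% of all genes) and 7 were lower (2.57%, against 2.16%). The other 587 lncRNAs gave 8.18% higher and 3.41% lower by the same thresholds. The study kept only transcripts that also differed in a separate analysis with Salmon and edgeR. That analysis was not run here, so these counts do not repeat the selection of the study. The log2 fold change was above 0 in 158 members, 58.1%, against 49.2% of all genes and 54.2% of the other lncRNAs, and its median was 0.11 in the members and -0.01 over all genes.

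When 1 library was left out, the calls changed most for Normal-22, the library with Xist, and they rose. They fell most without Normal-21, to 12 members with an unadjusted p under 0.05 by limma, 4.41% against 4.02% of all genes. Without Normal-22, 47 members had an unadjusted p under 0.05 (38 higher and 9 lower in 5xFAD), 17.3% against 18.1% of all genes. By direction these were 14.0% of the members against 9.89% of all genes higher, and 3.31% against 8.18% lower. One member, Plet1os, had an adjusted p of 0.0451 by limma (range over its alternatives 0.0451 to 0.992). Without Normal-22 and 5xFAD-2 together, a choice made after seeing the data, 45 did, 16.5% against 16% of all genes, with 14.3% against 8.77% higher and 2.21% against 7.2% lower. These shares describe the members and were not tested. The median deviation of the members from their own mean was 0.20, -0.13, 0.11 and 0.12 on the log2 scale in 5xFAD, against -0.17, -0.07, 0.16 and 0.00 in wild type. The mean deviation of the pinealocyte markers was 0.44, 0.01, 0.00 and 0.16 in the 5xFAD libraries, against -0.44, -0.52, 0.49 and -0.15 in the wild type libraries. Normal-11 and Normal-21 were lowest in the markers and below 0 in the members. However, 5xFAD-2 was at -0.13 in the members, below Normal-21, and at 0.01 in the markers. The part of tissue amounts in the fold changes was not tested.

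**Figure D2:**
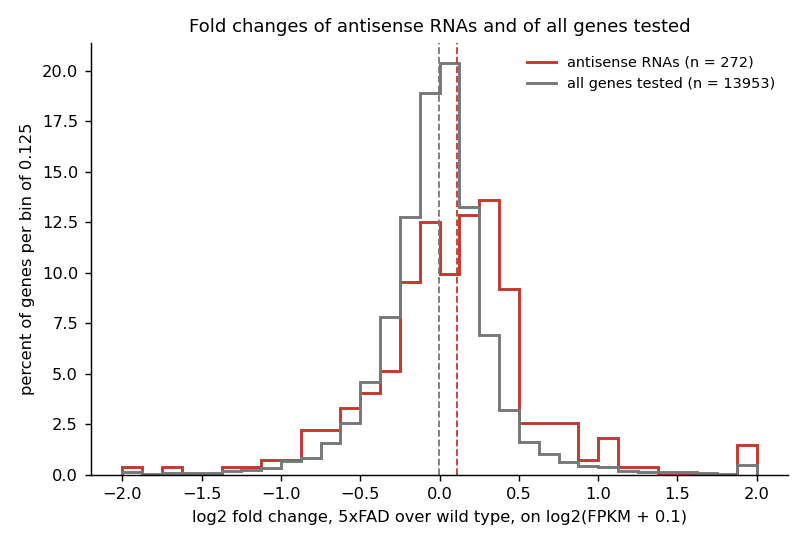
Distribution of the log2 fold change of 5xFAD over wild type (x axis, limma on log2(FPKM + 0.1), values beyond 2 put in the end bins) as percent of genes per bin (y axis) for 272 antisense RNAs and for all 13953 genes tested. Dashed lines mark the medians of 0.11 for the antisense RNAs and -0.01 for all genes.

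The 5xFAD and wild type libraries did not overlap in 12 members, 7 of them above wild type (2.57%, against 2.18% of all genes) and 5 below (1.84%, against 2.16%). Plet1os, which spans the placental and epithelial gene Plet1, had the largest positive difference. It had 1.04, 2.58, 1.75 and 1.89 FPKM in 5xFAD, against 0.224, 0.217, 0.717 and 0.269 FPKM in wild type. The 5xFAD libraries were all above 1 FPKM and the wild type libraries all below it, so Plet1os passed the limit only through 5xFAD. The log2 fold change was 2.13 ± 0.45 (SE, n = 4 each, limma adjusted p = 0.387). Plet1 itself had at most 0.272 FPKM in any library, too little to compare between the groups.

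RP23-479J7.2 had 3.80, 5.09, 3.75 and 4.87 FPKM in 5xFAD, against 1.76, 1.72, 2.53 and 2.71 FPKM in wild type. Each 5xFAD library exceeded each wild type library, with means of 4.38 ± 0.70 and 2.18 ± 0.51 FPKM (SD, n = 4 each) and a log2 fold change of 0.99 ± 0.21 (SE; limma adjusted p = 0.387). Its neighbors overlapped between the groups. Cops3 had 52.0, 47.1, 34.8 and 48.4 FPKM in 5xFAD, against 37.5, 37.4, 50.8 and 39.8 FPKM in wild type, a log2 fold change of 0.14. Flcn, across the start, had 43.1, 39.5, 35.5 and 43.7 FPKM in 5xFAD, against 35.9, 41.9, 50.6 and 46.4 FPKM in wild type, a log2 fold change of -0.11.

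The other 5 RNAs were above wild type in every 5xFAD library. RP23-379L17.3, tail to tail with the calcium-binding protein gene Necab1, had 2.87, 3.79, 2.36 and 3.61 FPKM in 5xFAD, against 1.6, 0.974, 1.93 and 1.452 FPKM in wild type, a log2 fold change of 1.05 ± 0.26. AC113069.6, which ends inside the pannexin gene Panx2, had 2.86, 1.89, 1.76 and 3.79 FPKM in 5xFAD, against 1.17, 1.44, 0.949 and 1.19 FPKM in wild type, a log2 fold change of 1.00 ± 0.29. For CH36-125B10.6, which has no entry in GENCODE M21, the log2 fold change was 0.68 ± 0.24, and for RP23-67I3.4, inside the calpain gene Capn2, it was 0.55 ± 0.21. Map2k3os had 1.76, 2.19, 1.68 and 1.53 FPKM in 5xFAD, against 1.26, 1.22, 1.21 and 1.44 FPKM in wild type, and here the gap between the groups was small (log2 fold change 0.44 ± 0.21). The limma adjusted p of these RNAs was 0.491 to 0.632, so none passed.

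Of the 5 members below wild type, 4 are described. RP23-30A18.5 in the fibroblast growth factor gene Fgf14 had 0.837, 0.890, 1.15 and 0.419 FPKM in 5xFAD, against 3.71, 4.22, 2.92 and 1.42 FPKM in wild type (log2 fold change -1.74 ± 0.40, limma adjusted p = 0.476). Fgf14 itself was low, at a mean of 0.339 FPKM. AC139064.2, a single-exon RNA of 5428 nt in the autophagy gene Rb1cc1, had 3.93, 4.60, 5.68 and 6.79 FPKM in 5xFAD, against 8.10, 7.49, 8.23 and 7.81 FPKM in wild type. The wild type libraries were close together and the 5xFAD libraries were spread below them (log2 fold change -0.61 ± 0.17), while Rb1cc1 had 18.8 to 21.4 FPKM in 5xFAD and 17.8 to 21.6 FPKM in wild type. RP23-3M10.5, head to head with Ankrd13a, gave a log2 fold change of -0.69 ± 0.24 and RP23-434H17.3, in the splicing factor gene Rbm48, gave -0.79 ± 0.33, and no limma adjusted p in this group of 5 was below 0.476.

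**Figure D3:**
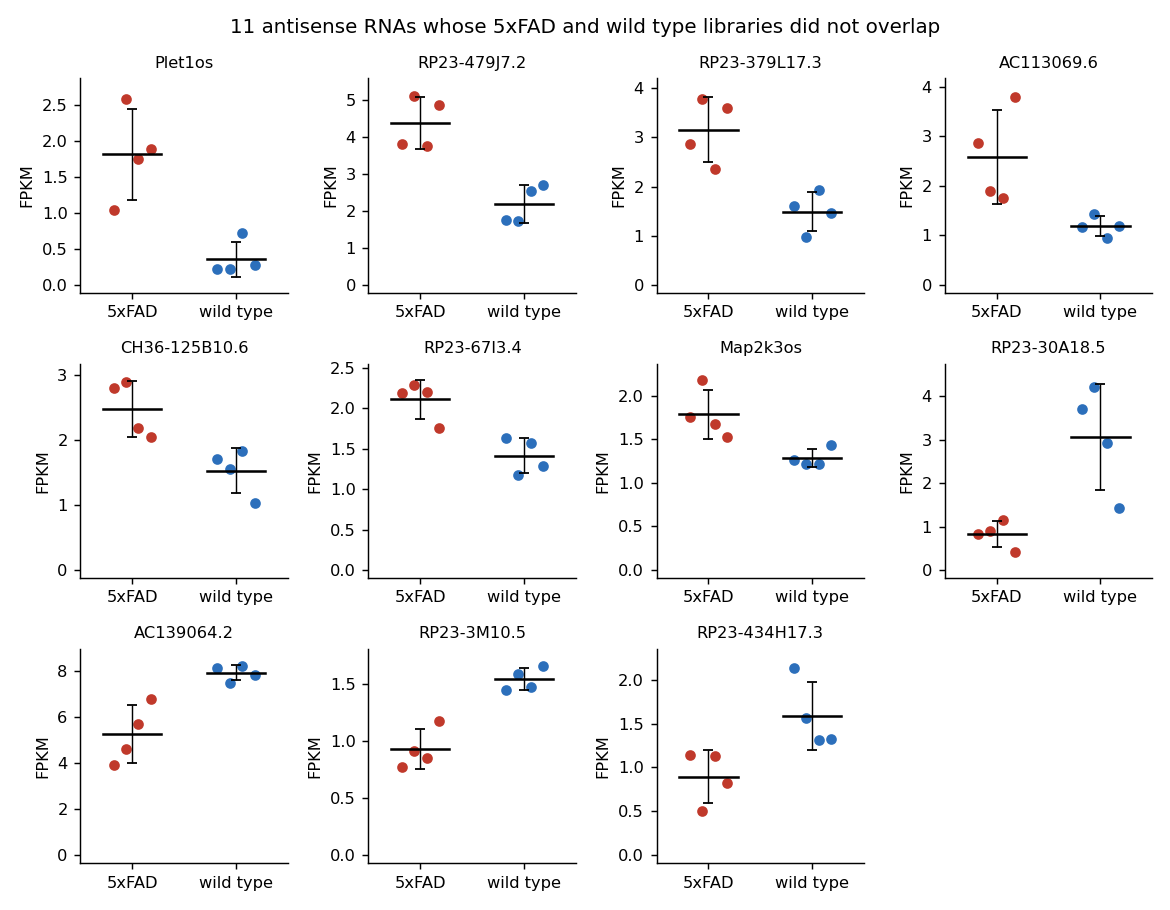
FPKM per library (y axis) of 11 of the 12 antisense RNAs whose groups did not overlap, 5xFAD left and wild type right, with the mean (horizontal line) and SD (bars, n = 4). The first 7 panels have 5xFAD above wild type, with the widest gap in log2 terms for Plet1os, and the last 4 below.

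The label numbers fall into a series from 20 (5xFAD-21, Normal-21, Normal-22 and Normal-23) and lower numbers (the other 3 5xFAD libraries and Normal-11), and the labels do not say what the series is. Within the 2 sets the log2 fold change was 2.12 and 2.46 for Plet1os, 1.07 and 1.20 for RP23-479J7.2, -2.38 and -1.86 for RP23-30A18.5, and -0.21 and -0.78 for AC139064.2, each set having 1 library on one side.

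Several members with an unadjusted p under 0.05 overlapped only through Normal-22. RP23-386C23.1, in an intron of the transcription factor gene Nfib, had 8.42, 6.97, 12.1 and 13.4 FPKM in 5xFAD, against 3.15, 2.92, 8.99 and 4.33 FPKM in wild type, where 8.99 was Normal-22. Its log2 fold change was 1.16 ± 0.36 (limma adjusted p = 0.552), while Nfib differed by 0.09. RP24-297D18.1, head to head with the neuronal repressor gene Zbtb18, had 3.75, 5.05, 2.83 and 3.81 FPKM in 5xFAD, against 2.01, 0.735, 3.61 and 0.763 FPKM in wild type, and Normal-22 at 3.61 FPKM was again the highest wild type library. RP23-108F2.23 (BC023719), in the multigene H2-T region of class I genes, had 13.5, 12.5, 5.25 and 8.78 FPKM in 5xFAD, against 2.98, 0, 12.5 and 0 FPKM in wild type. Its values are uncertain, because reads of near-identical genes may be split or lost there, and no fold change is given because 2 wild type libraries were at 0.

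In the list of imprinting and X inactivation, 3 of 6 genes were members (1 higher and 0 lower at an unadjusted p under 0.05, median log2 fold change -0.27). Airn, the paternal RNA that silences Igf2r, had 21.6, 16.6, 20 and 10.9 FPKM in 5xFAD, against 30.2, 19.7, 20.9 and 17.1 FPKM in wild type, and Kcnq1ot1 had 4.89 to 8.54 FPKM in 5xFAD and 6.46 to 8.59 FPKM in wild type. Both ranges overlapped. Tsix, the antisense RNA of Xist, had 0.749, 0.884, 1.82 and 2.34 FPKM in 5xFAD, against 0.495, 0.692, 0.771 and 0.454 FPKM in wild type (log2 fold change 1.03 ± 0.42, limma adjusted p = 0.598). Tsix shares 1980 of its 6077 exon nt with Xist. In Normal-22, where Xist was at 13.3 FPKM, Tsix was at 0.771 FPKM, which is close to the other wild type libraries.

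Antisense RNAs of transcription factor and coregulator genes gave 9 members of 17 on the list, none with an unadjusted p under 0.05 (0 of 9; median log2 fold change -0.13). Pax6os1, head to head with the eye master regulator Pax6, had 1.64, 1.04, 0.623 and 0.803 FPKM in 5xFAD, against 0.876, 1.20, 0.875 and 2.08 FPKM in wild type. Zeb2os, inside the gene of the neural crest factor Zeb2, had 3.15, 2.40, 2.13 and 1.83 FPKM in 5xFAD, against 1.87, 1.32, 2.13 and 1.05 FPKM in wild type, and the groups overlapped, since 5xFAD-21 at 1.83 FPKM was below Normal-11 and Normal-22. Six3os1, Otx2os1, Sox2ot, Crxos and Lhx1os were on the list but stood under another class in the table, and Dlx6os1 and Dlx1as were below 1 FPKM.

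All 9 RNAs on the list of secretory and signaling partners were members, 1 of them, Rab26os, with an unadjusted p under 0.05 (log2 fold change 0.45 ± 0.19, limma adjusted p = 0.598), and the median log2 fold change was 0.04. Kcnd3os, head to head with the potassium channel gene Kcnd3, had 4.03, 2.41, 3.61 and 4.30 FPKM in 5xFAD, against 1.03, 1.19, 4.01 and 2.51 FPKM in wild type. Frmpd1os, inside the scaffold gene Frmpd1, had 0.639, 8.35, 5.26 and 20.8 FPKM in 5xFAD, against 8.54, 10.1, 0.633 and 10.3 FPKM in wild type, so 1 library of each group was far below the rest. Pcsk2os1, whose partner Pcsk2 encodes prohormone convertase 2, was at 0.0255, 2.05, 0.587 and 1.44 FPKM in 5xFAD, against 1.36, 2.21, 0.351 and 0.479 FPKM in wild type. In 5xFAD-1, where Frmpd1os and Pcsk2os1 were low, the 4 choroid plexus markers other than Otx2, which pinealocytes also express, had their lowest sum, 48.2 FPKM against 259.1 to 642.0 FPKM in the other 7 libraries. RP23-360O1.1 beside Prdm16 was at 0.276 FPKM against 3.88 to 15.5 FPKM in the other 7 libraries. In Normal-22, where the 4 markers summed to 259.1 FPKM, Frmpd1os was also low at 0.633 FPKM and Pcsk2os1 was at 0.351 FPKM. Pcsk2os1 did not follow the sums in every library. It was at 0.479 FPKM in Normal-23 and 0.587 FPKM in 5xFAD-3, where the sums were 492.0 and 389.2 FPKM. The part of choroid plexus tissue in these values was not tested.

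Of the 8 RNAs named for mitochondrial and other housekeeping genes, all were members, 7 had a log2 fold change above 0, and none had an unadjusted p under 0.05 (0 of 8; median 0.13). Tomm6os, named for a subunit of the mitochondrial import channel, had 3.06, 2.51, 3.10 and 3.38 FPKM in 5xFAD, against 1.59, 1.64, 3.15 and 2.32 FPKM in wild type. Etaa1os, next to the replication stress gene Etaa1, had 6.91, 4.02, 5.64 and 5.73 FPKM in 5xFAD, against 3.58, 3.63, 8.06 and 3.38 FPKM in wild type. In both RNAs Normal-22 was the highest wild type library.

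Dnm3os, Tug1, Gt(ROSA)26Sor and H3f3aos made up the list of widely studied transcripts (4 of 4 members, none with an unadjusted p under 0.05, median log2 fold change -0.29). Dnm3os, the precursor of miR-199a and miR-214 shown above, had 1.6, 1.46, 1.32 and 0.114 FPKM in 5xFAD, against 8.16, 4.25, 0.555 and 0.904 FPKM in wild type. The bone marker sums of the same libraries were 56.3, 77.8, 46.2 and 17.9 FPKM in 5xFAD, against 170.0, 146.0, 26.8 and 112.3 FPKM in wild type. Normal-11 and Normal-21 were highest in both and 5xFAD-21 and Normal-22 lowest in both, but Normal-23, next highest in bone markers, had only 0.904 FPKM of Dnm3os. The same libraries were at the extremes of the fibroblast marker sums (740.9, 947.7, 737.4 and 359.4 FPKM in 5xFAD, against 2278, 1950, 413.5 and 1136 FPKM in wild type). Smooth muscle and pericyte markers had the same extremes, with 124.4, 165.0, 131.8 and 77.1 FPKM in 5xFAD, against 281.2, 227.0, 102.4 and 163.1 FPKM in wild type. RP23-23B17.2, which holds Mir223, had 3.38, 2.65, 4.50 and 0.881 FPKM in 5xFAD, against 11.8, 6.22, 1.39 and 3.45 FPKM in wild type, beside neutrophil marker sums of 44.9, 202.5, 247.3 and 22.97 FPKM in 5xFAD and 441.8, 190.8, 20.02 and 120.1 FPKM in wild type. Its highest value again stood in Normal-11 and its lowest values in 5xFAD-21 and Normal-22. The part of bone, marrow, fibroblasts and vessel wall cells in the group means of both RNAs was not tested, and these tissues cannot be told apart here by their extremes.

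Whether an antisense RNA changed relative to its partner was tested on the log2 ratio of the 2 rows per library, with limma over all 305 pairs of a lncRNA and its partner, 193 of them with a member. No ratio passed an adjusted p of 0.05 (0 of 193, and 0% of all pairs). At an unadjusted p under 0.05 the ratio was higher in 5xFAD in 10 members' pairs (5.18%, against 4.26% of all pairs) and lower in 5 (2.59%, against 2.62%). The pair with the smallest p was RP23-79O10.5 and Zfp219, a zinc finger gene, which lie head to head and share 134 exon nt. RP23-79O10.5 had 1.90, 1.55, 1.97 and 1.82 FPKM in 5xFAD, against 0.575, 0.745, 1.64 and 0.694 FPKM in wild type, and Zfp219 had 11.9, 12.6, 13.8 and 15.1 FPKM in 5xFAD, against 13.4, 16.4, 20.8 and 15.3 FPKM in wild type. The log2 ratio was higher by 1.30 ± 0.24 (SE; limma adjusted p = 0.113) and did not overlap between the groups. Without Normal-22 the difference was 1.48 with an adjusted p of 0.0285 (range over its alternatives 0.0285 to 0.537).

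In the pair RP23-387P23.6 and Ccnd2 the partner carried the difference. Ccnd2, the cyclin D2 gene, had 15.7, 23.1, 16.9 and 20.9 FPKM in 5xFAD, against 48.2, 47.1, 35.0 and 47.2 FPKM in wild type (log2 fold change -1.22, limma adjusted p = 0.0797). RP23-387P23.6, head to head with it, had 2.62, 2.30, 1.22 and 1.35 FPKM in 5xFAD, against 2.17, 1.66, 1.62 and 1.76 FPKM in wild type, a log2 fold change of -0.01 ± 0.28. The log2 ratio was therefore higher in 5xFAD by 1.21 ± 0.31 (limma adjusted p = 0.245). In the pair Zmiz1os1 and Zmiz1, a coactivator gene, both sides contributed, with log2 fold changes of 0.35 for Zmiz1os1 and -0.46 for Zmiz1 and a ratio higher by 0.82 ± 0.22. For RP23-479J7.2 and Cops3 the ratio was higher by 0.85 ± 0.23 and for RP23-117P3.3 and Mkrn1, a ubiquitin ligase gene, by 0.87 ± 0.24, all 3 with a limma adjusted p of 0.245.

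The log2 ratio differed by -0.997 ± 0.28 for RP23-434H17.3 and Rbm48 (SE; limma adjusted p = 0.245), by -0.67 ± 0.25 for AC139064.2 and Rb1cc1, by -0.58 ± 0.23 for RP23-3M10.5 and Ankrd13a and by -0.64 ± 0.26 for RP23-358K1.3 and Lsr, a lipoprotein receptor gene of tight junctions. In RP23-201C3.1 and Dock3, a guanine exchange factor gene, it was -1.74 ± 0.62, where RP23-201C3.1 had 1.03, 0.539, 0.795 and 0.6 FPKM in 5xFAD, against 0.526, 4.61, 1.12 and 1.76 FPKM in wild type. Without Normal-21, its highest library, the difference for RP23-201C3.1 was -1.09.

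**Figure D4:**
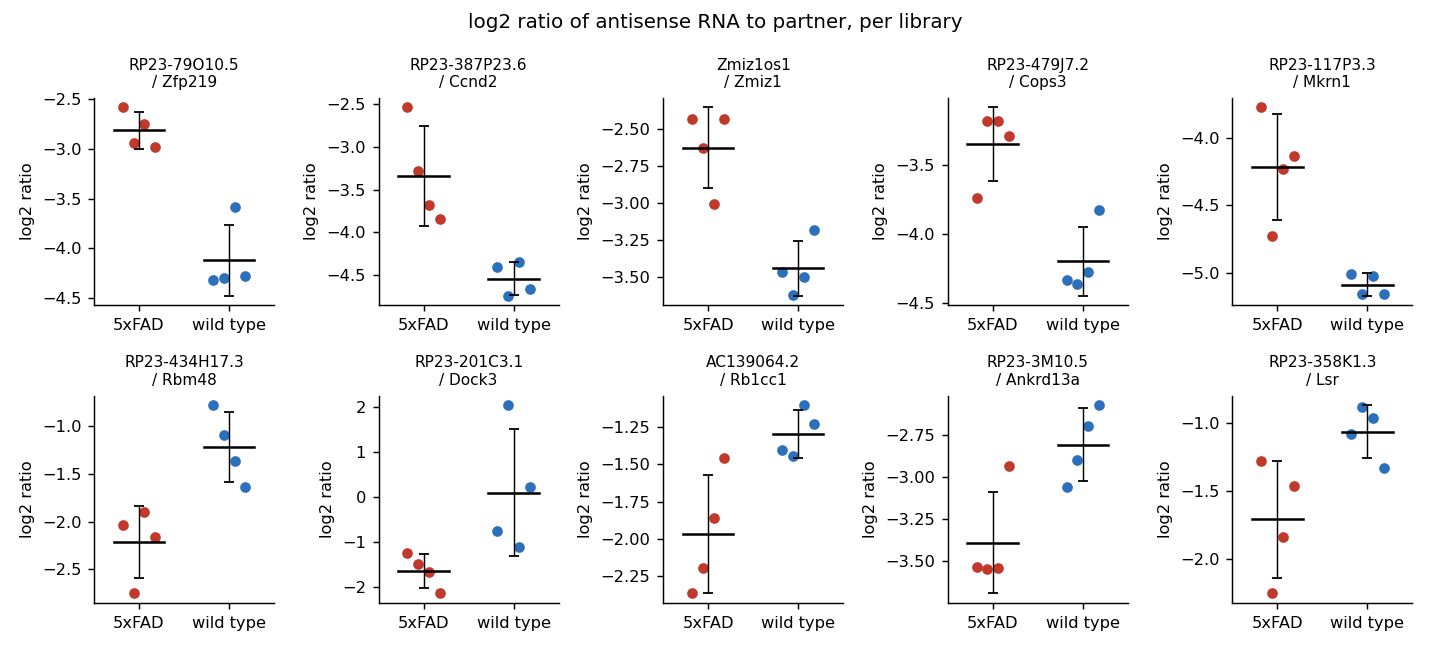
Log2 ratio of antisense RNA to partner per library (y axis, FPKM + 0.1) for the 5 pairs with the smallest p in each direction, 5xFAD left and wild type right, with mean and SD (n = 4). The upper row has higher ratios in 5xFAD, by 0.82 to 1.30, and in the lower row the difference was -0.58 to -1.74.

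Correlation of each member with its partner was computed across the 8 libraries. After removal of the group means the median correlation of log2 values over 193 pairs was 0.17, with 119 pairs above 0. It was 0.24 with the nearest protein-coding gene that the member does not overlap (212 pairs, 144 above 0). The median was 0.36 for members inside the partner, 0.20 head to head, -0.09 tail to tail and -0.38 in 4 spanning pairs. All pairs share the same libraries with their unequal tissue amounts, so these medians are descriptions. Over the 8 libraries, without removal of the group means, 34 of 193 pairs had an exact permutation p under 0.05 for Pearson's r, 29 of them positive. None passed after adjustment over the 193 pairs (smallest adjusted p 0.0692). The exact test was not run on the pairs with a gene that does not overlap, so its counts have no background share. For Spearman's rho, 29 had an exact p under 0.05 and 1 passed after adjustment.

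That pair was RP24-347A16.3 and Bcat1, the cytosolic branched-chain aminotransferase gene, which had a mean of 154.5 FPKM. RP24-347A16.3 lies inside Bcat1, shares 337 exon nt with it and had 4.45, 2.32, 3.00 and 3.39 FPKM in 5xFAD, against 1.76, 2.08, 4.60 and 2.92 FPKM in wild type. Bcat1 had 199.3, 137.4, 161.7 and 194.9 FPKM in 5xFAD, against 93.4, 93.5, 211.4 and 144.4 FPKM in wild type. The 8 libraries stood in the same order for both (r = 0.95, exact permutation p = 0.000967, adjusted p = 0.0692; rho = 1.00, exact permutation p = 5e-05, the smallest that 8 libraries can give, adjusted p = 0.00957). Without the 2 libraries farthest from the median, r was 0.90. Whether the counting used the strand is not stated in the sources. Without strand, reads of Bcat1 and of RP24-347A16.3 cannot be told apart in the shared exon bases, and their part in this correlation was not tested.

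Other pairs had correlations of similar size. RP23-119N24.3 and Ddc gave r = 0.82 (exact permutation p = 0.0144, adjusted p = 0.116) and rho = 0.71 (exact permutation p = 0.0576, adjusted p = 0.347), and r was 0.55 without Normal-11 and 5xFAD-1. Kcnd3os and Kcnd3 gave r = 0.90 (exact permutation p = 0.00129, adjusted p = 0.0692) and rho = 0.90 (exact permutation p = 0.00456, adjusted p = 0.126), and 0.99 within the groups, but r was 0.66 without Normal-11 and Normal-21. Hk1os and Hk1, the hexokinase of brain, gave r = 0.90 (exact permutation p = 0.00293, adjusted p = 0.0692) and rho = 0.83 (exact permutation p = 0.0154, adjusted p = 0.212), with r at 0.70 without Normal-11 and Normal-22. RP23-297I16.6 and Lhx3, and RP23-5H10.2 and Isl2, which pair with LIM homeodomain genes, gave r = 0.91 and 0.89. Pcsk2os1 and Pcsk2 gave r = 0.88 (exact permutation p = 0.0062, adjusted p = 0.0741) and rho = 0.79 (exact permutation p = 0.0279, adjusted p = 0.234), with 0.0255 and 0.352 FPKM in 5xFAD-1 the lowest of both. Brip1os and Ints2, an Integrator subunit gene, ran opposite (r = -0.89, exact permutation p = 0.00814, adjusted p = 0.0872; rho = -0.55, exact permutation p = 0.171, adjusted p = 0.541), with Brip1os lowest and Ints2 highest in Normal-22. The pinealocyte marker sum was lowest in Normal-21 and Normal-11 and highest in 5xFAD-1, Normal-22 and 5xFAD-2 (4096, 3757 and 3583 FPKM). Pcsk2os1 stood in another order, highest in Normal-21 and lowest in 5xFAD-1. The part of pinealocyte content in these correlations was not tested.

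**Figure D5:**
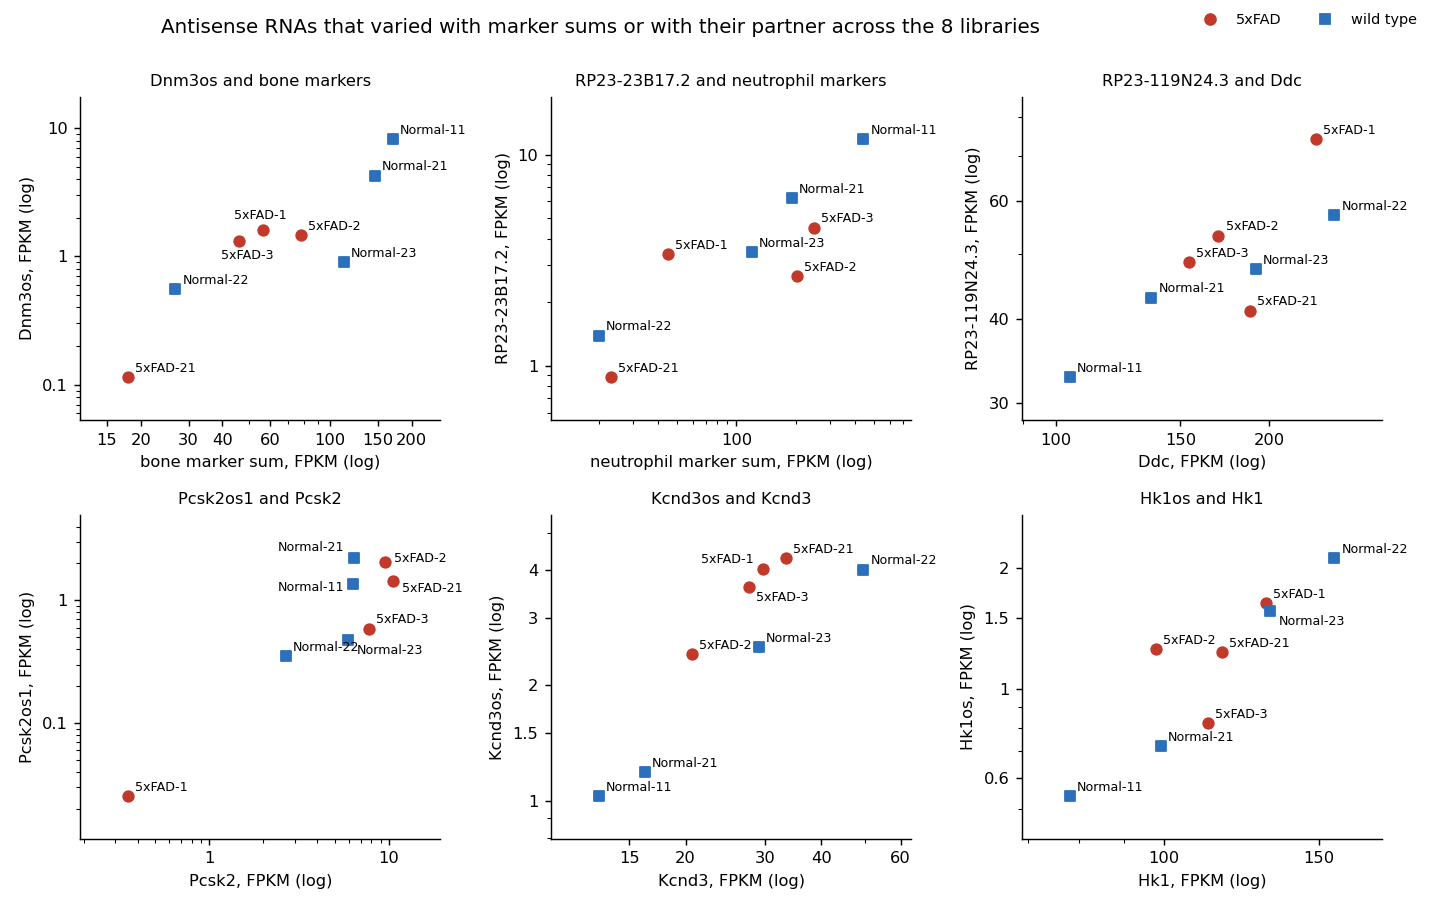
FPKM per library of 6 antisense RNAs (y axes, log scale) against a marker sum or the partner (x axes, FPKM, log scale), with 5xFAD as circles and wild type as squares. Dnm3os and RP23-23B17.2 are highest in Normal-11, the library with the largest bone and neutrophil marker sums, and Pcsk2os1 and Pcsk2 are both lowest in 5xFAD-1.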

How the data were processed

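The deposited table holds FPKM values for 8 libraries. The authors trimmed paired reads of TruSeq Stranded Total RNA libraries with Trimmomatic, aligned them to GRCm38.p6 (mm10) with STAR and computed FPKM with Cuffnorm on GENCODE M17. Versions, the strand option of the counting and the library normalization are not given in the sources used here, and without strand the reads of an antisense RNA and its partner cannot be told apart where exons overlap. Of 53710 rows, 53616 matched GENCODE M21 by ID, which gave positions and partners. Fragment depth came from the steps between low FPKM values of single-transcript genes (95.7% to 98.4% of values of 1 to 20 fragments were whole within 0.05). Replicates are separate pools, so p-values measure the spread between pools.

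Fold changes are limma 3.58.1 estimates (R 4.3.3, lmFit, eBayes with a trend) on log2(FPKM + 0.1), for genes with a mean of at least 1 FPKM, with Benjamini-Hochberg adjustment over all 13953 genes. They understate changes of low genes. Ratios were fitted the same way over 305 pairs. Correlations were tested by exact permutation, two-sided. The fits were tested on simulated data. The members and lists were chosen with earlier results of these data known. Genes were named by rule: groups that did not overlap (up to 8 per direction), the 10 highest means, list members, the 5 ratios with the smallest p per direction and the 5 members highest over a partner of at least 1 FPKM, RP23-479J7.2, and the rows around the limit. RP23-386C23.1, RP24-297D18.1, RP23-108F2.23, RP23-23B17.2, RP23-360O1.1, RP24-347A16.3, RP23-297I16.6, RP23-5H10.2 and Gm49685 were named after their values were seen. One member that the rule names is not reported here. Sequences come from RefSeq and GENCODE M21 and the primer sites from the primer list of the study. The alternatives were other pseudocounts, filters, gene sets, scalings, covariates, GC correction, weights, partners and left-out libraries.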

Additional observations from a re-analysis of the deposited data

Results flagged for a closer look

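Within each group of 4 libraries, the 58 named antisense RNAs were searched for a single library that lay far from the other 3, by Dixon's gap over the whole range. Of 116 such groups 3 stood out, fewer than the about 1 in 20 that chance gives, and all 3 were high in Normal-22. Plet1os was at 0.717 FPKM there, against 0.217 to 0.269 FPKM in the other wild type libraries. Etaa1os was at 8.06 FPKM, against 3.38 to 3.63 FPKM, and RP23-79O10.5 at 1.64 FPKM, against 0.575 to 0.745 FPKM. Normal-22 is also the library with Xist.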

How the results depend on the processing

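None of the results reversed. The count of members with an adjusted p under 0.05 by limma, 0 (22 at an unadjusted p under 0.05), ranged from 0 to 1 when 1 library was left out, the 1 being Plet1os without Normal-22. Without Normal-22 and 5xFAD-2, chosen after seeing the data, it was 1, Gm49685 at an adjusted p of 0.049. At an unadjusted p under 0.05 the members higher in 5xFAD numbered 3 with a minimum mean of 5 FPKM, 34 with array weights, 8 to 38 with 1 library left out and 39 without both libraries. The shares of all genes were 4.81%, 8.04%, 2.39% to 9.89% and 8.77% (members 7.14%, 12.5%, 2.94% to 14.0% and 14.3%). Those lower numbered 1 with the minimum of 5 FPKM and 14 with the label number series as a term (2.38% and 5.15% of members, 3.10% and 6.81% of all genes). By the lncRNA thresholds of the study, applied to the limma fits alone, members higher numbered 11 with a pseudocount of 1 and 2 with the minimum of 5 FPKM. They numbered 11 to 35 with 1 library left out and 46 without both. These were 4.04%, 4.76%, 4.04% to 12.9% and 16.9% of members, against 2.12%, 1.97%, 1.99% to 4.81% and 5.14% of all genes. Those lower numbered 1 with the minimum, 16 with the label number series and 11 with array weights. With 1 library left out they numbered 4 to 15, and without both 11. These were 2.38%, 5.88%, 4.04%, 1.47% to 5.51% and 4.04% of members, against 1.14%, 7.08%, 3.83%, 1.28% to 6.77% and 6.79% of all genes. Members with groups apart numbered 8 to 30 above and 5 to 10 below with 1 library left out, and 49 and 10 without both. The shares of all genes were 2.54% to 9.35%, 2.73% to 7.10%, 12.3% and 9.41% (members 2.94% to 11%, 1.84% to 3.68%, 18% and 3.68%). For the ratio to the partner, 0 to 1 pairs passed the adjusted test with 1 library left out. Unadjusted, 23 pairs passed with the label number series, 10 to 28 with 1 library left out and 31 without both, which were 11.9%, 5.18% to 14.5% and 16.1% of member pairs against 9.84%, 4.92% to 13.4% and 13.8% of all pairs. The minimum of 5 FPKM leaves 42 members to test. Groups of fewer libraries are apart more easily, so counts of groups apart with libraries left out are not like for like with those of all 8 libraries. The cause of the other shifts was not tested.

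Replicate numbers, which follow the order of the libraries in each group, did not pair the libraries. The same-numbered libraries were Normal-11 with 5xFAD-1, Normal-21 with 5xFAD-2, Normal-22 with 5xFAD-3 and Normal-23 with 5xFAD-21. They correlated at -0.055, 0.209, -0.311 and 0.234 in their deviations from the group means. Normal-21 and 5xFAD-21, which share a label number, correlated at -0.285. With the replicate block 17 members had an unadjusted p under 0.05 (6.25%, against 5.48% of all genes) and 0 an adjusted one (smallest 0.745). With the GC trend removed as well, 19 had an unadjusted p under 0.05 (7.04%, against 5.57% of all genes). Low fragment numbers limit the precision of members near 1 FPKM.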
